A study of Arabidopsis thaliana with 16 samples.

Results

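Leaves of an Arabidopsis thaliana line with a T-DNA inserted in the first exon of HYPK, called here the exon 1 line, were compared with leaves of the wild type (WT). The comparison uses 8 of the 16 arrays of the study, 4 of each genotype, chosen by their titles, and covers all 27826 probe sets. The other 8 arrays hold a line with a T-DNA in the second HYPK exon (the exon 2 line) and a NAA10 knockdown line made with an artificial microRNA (amiNAA10), 4 arrays each. All plants were 6 weeks old, untreated and grown on soil with 8.5 h of light a day. The exon 1 line is a single insertion line, and the labels give neither the ecotype nor what distinguishes the 4 samples of 1 genotype, such as plants, pools or preparations. So the p-values cover the scatter among the samples at hand, part of which may be technical.

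Most cytosolic proteins of eukaryotes are acetylated at their N-terminus while they leave the ribosome. The NatA complex does this for proteins whose initiator methionine has been removed, with NAA10 as its catalytic subunit and NAA15 as the subunit that anchors it to the ribosome. HYPK is a small protein that binds NatA, and in plants it promotes NatA activity. NAA50 is the catalytic subunit of another acetyltransferase that associates with the same complex.

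All values are log2 expression values from robust multi-array averaging (RMA), a difference of 1 is a 2-fold change, and a difference is the mean of the exon 1 line minus the mean of WT unless stated. A probe set was called where limma's adjusted p, over all probe sets, was under 0.05. Arrays correlated at r = 0.982 to 0.990 within the exon 1 line, at 0.985 to 0.990 within WT and at 0.953 to 0.976 between them, and no arrays were identical. The first principal component of the 8 arrays held 56.5% of the variance and put exon 1 replicates 2 and 3 (57.8 and 52.3) further from WT than replicates 1 and 4 (24.8 and 29.7), while WT replicate 4 lay nearest to the exon 1 line (-28.8, against -43.5 to -47.8). No batch or date is given in the labels, so the cause of this order was not tested.

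HYPK itself was lower on every exon 1 array. HYPK (AT3G06610) read 4.53, 4.87, 4.69 and 4.79 on the exon 1 arrays and 5.68, 5.75, 5.66 and 5.55 on the WT arrays. The groups did not overlap, and HYPK fell by 0.94 (SE 0.13, adjusted p = 0.000154), to 52% of WT. A two-sided exact permutation test gave p = 0.0286, the smallest that 4 arrays against 4 allow. Where the probes lie relative to the insertion is not given in the sources used here, so the remaining signal does not say whether an intact transcript was made.

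The transcripts of the NatA subunits did not pass the test. NAA10 differed by -0.12 (adjusted p = 0.52) and NAA15 by 0.11 (adjusted p = 0.507). NAA50 (AT5G11340) read 4.97, 4.95, 5.01 and 4.77 on the exon 1 arrays and 4.98, 5.24, 5.68 and 5.33 on the WT arrays. NAA50 was lower by 0.39 (SE 0.13, adjusted p = 0.044), with WT replicate 3 the highest array and WT replicate 1 within the exon 1 range, so that the groups overlapped. Its call was lost on leaving out any single array except WT replicate 1, with differences from -0.26 to -0.41 and adjusted p of 0.0621 to 0.147 in those fits.

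**Figure D1:**
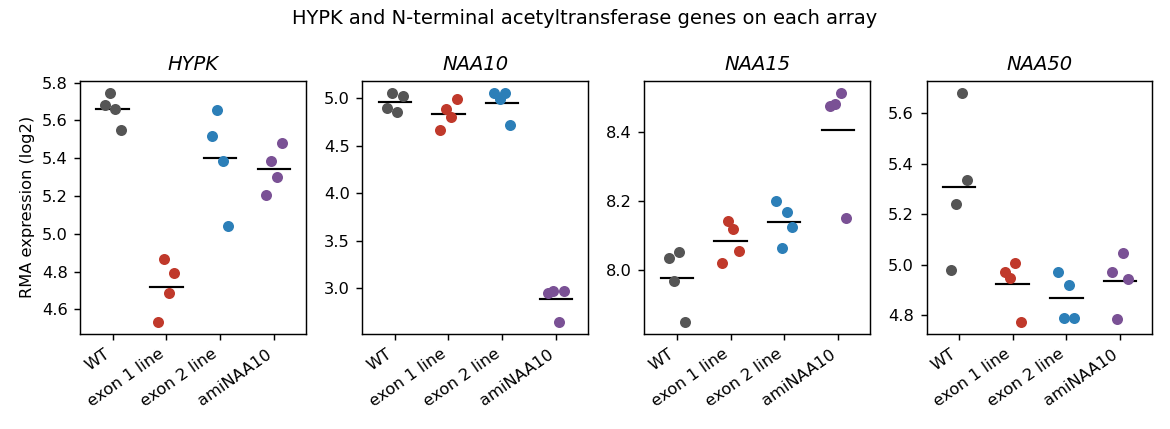
RMA expression (log2) of HYPK, NAA10, NAA15 and NAA50 in 4 genotypes, with 1 point per array and a bar at the mean of 4. The vertical axes differ between panels and do not start at 0; HYPK on the exon 1 arrays, 4.53 to 4.87, lies below the other 12 arrays.

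Among the 5 measured loci on each side of HYPK, 2 passed the test. GALK, a galactose kinase, rose by 0.53 (SE 0.12, adjusted p = 0.00578), with 7.23, 7.32, 7.35 and 7.05 on the exon 1 arrays and 6.61, 6.51, 6.77 and 6.97 on the WT arrays, which did not overlap. ACLB-1, a subunit of ATP-citrate lyase, was lower by 0.34 (SE 0.11, adjusted p = 0.0395), a call that was lost without exon 1 replicate 2, 3 or 4 or WT replicate 1, 2 or 3 (adjusted p of 0.0597 to 0.124) and with only the arrays of both groups in the fit (adjusted p = 0.0642). The nearest locus, AT3G06600, differed by -0.04 (adjusted p = 0.89) with both means under the level of the dimmest 30% of probe sets, and the others differed by -0.27 to 0.14.

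The exon 1 line differed from WT at 5448 of 27826 probe sets (19.6%). Of these, 2697 were higher (9.69% of all) and 2751 lower (9.89%). Large changes leaned upwards: 705 probe sets rose at least 2-fold (2.53%) and 547 fell as much (1.97%), and 176 rose at least 4-fold (0.633%) against 39 that fell so far (0.14%). The 4 exon 1 arrays did not overlap the 4 WT arrays at 6238 of 27826 probe sets (22.4%), a larger share than was called. A lack of overlap therefore does not by itself set a gene apart, for HYPK or for any gene named below. The median size of a called change was 0.69, and the median difference of all probe sets was -0.02. Each gene list below is read against the shares called and the median difference of all probe sets. These shares include dim probe sets, while most listed genes are brighter. Without the dimmest 30%, 5769 probe sets were called from 30% fewer tested. The share called among brighter probe sets is therefore well above 19.6%. Lists with 20% to 40% called are for this reason not set apart by that share alone. A mean under 1.83, the level of the dimmest 30% of probe sets, gives a difference that may be understated. Among the genes named below and called against WT, this holds for NIT2, CYP71A13, PAD3, FLS2, BCS1, AG and BGL2 in WT. In the exon 1 line it holds for MYB111, VSP2, LSU1, RLP6, AG and BGL2. It also holds in the exon 1 line for AT3G06600, PDF1 and SPCH, which are named below for differences from the other lines. In leaf RNA, fewer cells of a type and less RNA per cell cannot be told apart.

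**Figure D2:**
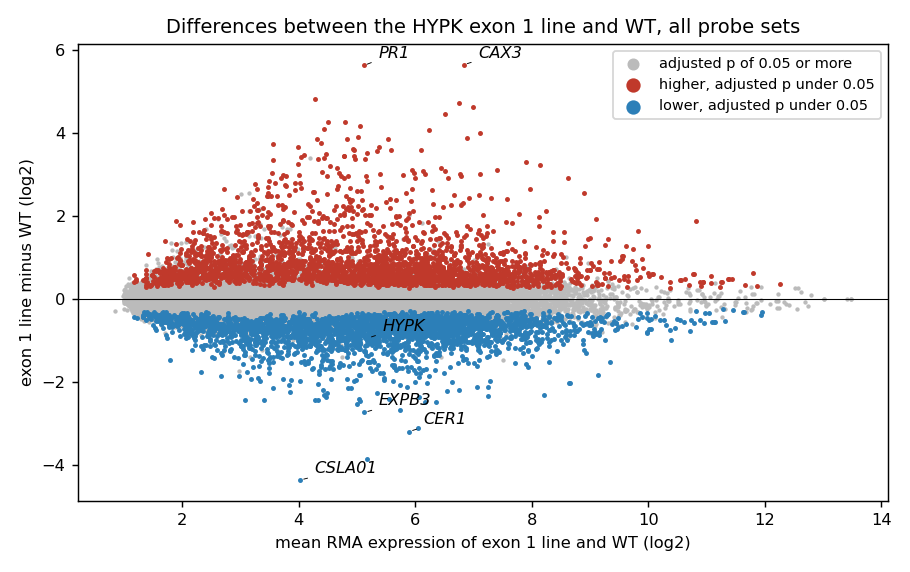
Difference between the exon 1 line and WT (log2) against the mean expression of both (log2), with 1 point per probe set, red for the 2697 higher and blue for the 2751 lower probe sets. The largest differences upwards, CAX3 and PR1, exceed 5.6, and the largest downwards, CSLA01, is -4.37.

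Markers of leaf cell types were set beside these changes. Of 4 mesophyll markers, CAB2, a light-harvesting protein gene, was the 1 called (-0.46, adjusted p = 0.0221), a call lost without exon 1 replicate 2 or 3 or WT replicate 1 or 3, and the list mean was 9.72 to 9.77 on the exon 1 arrays and 9.75 to 9.87 on the WT arrays. RCA, the activase of Rubisco (0.03, adjusted p = 0.879), and RBCS1A, a Rubisco small subunit (0.10, adjusted p = 0.45), did not pass. Guard cell markers were lower: 5 of 7 fell and 0 rose, with a median of -0.78. They include FMA, a transcription factor of guard cell differentiation, which fell by 0.78 (SE 0.13, adjusted p = 0.000573), and OZS1, the anion channel SLAC1, which fell by 1.06 (adjusted p = 0.00125). The guard cell list mean was 4.28 to 4.61 on the exon 1 arrays and 4.82 to 5.24 on the WT arrays, with WT replicate 4 the lowest of WT.

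Vascular markers were also lower, with 5 of 12 called lower and 0 higher and a median of -0.39, which was -0.23 without WT replicate 1. The list mean was 4.70 to 5.02 on the exon 1 arrays and 5.15 to 5.49 on the WT arrays. HB-8, a factor of procambium cells, fell by 0.96 (SE 0.15, adjusted p = 0.000373). The phloem factor APL fell by 0.60 and the secondary wall cellulose synthase CESA4 by 1.03, while the companion cell sucrose transporter SUC2 was at -0.17 (adjusted p = 0.459). Of 6 epidermis markers GL2 alone was called (-0.48, adjusted p = 0.0297), and its call was lost without exon 1 replicate 2 or 4 or WT replicate 1, 3 or 4 and with an intensity trend (adjusted p = 0.0519). Of 7 genes of dividing cells SYP111 alone was called (-0.74, adjusted p = 0.0338), a call lost on leaving out any single array except WT replicate 4. Of 10 flower and root markers 2 were called lower, LFY (-0.66, adjusted p = 0.00345) and AG (-0.44, adjusted p = 0.0197, lost without exon 1 replicate 4 or WT replicate 4 and, at adjusted p = 0.0554, with only the arrays of both groups in the fit). The list means were 4.80 to 5.07 on the exon 1 arrays and 5.13 to 5.24 on the WT arrays for the epidermis, 1.94 to 2.17 on the exon 1 arrays and 2.2 to 2.54 on the WT arrays for dividing cells and 1.86 to 2.01 on the exon 1 arrays and 1.84 to 2.06 on the WT arrays for flower and root. The part of these differences in the results that follow was not tested.

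The largest rises included genes of calcium handling and of defence. CAX3 (AT3G51860) read 9.93, 10.12, 9.25 and 9.35 on the exon 1 arrays and 3.71, 3.88, 4.11 and 4.33 on the WT arrays. CAX3 is a calcium/proton exchanger of the vacuolar membrane, and it rose by 5.65 (SE 0.30, adjusted p = 4.45e-08), which is 50.3-fold. Its 4 exon 1 arrays lay within 1 log2 unit of each other and far above every WT array. PR1 (AT2G14610) read 8.08, 9.10, 8.87 and 5.68 on the exon 1 arrays and 2.09, 1.84, 2.15 and 3.12 on the WT arrays. PR1, the secreted pathogenesis-related protein used as a marker of salicylic acid responses, rose by 5.63 (SE 0.92, adjusted p = 0.000615). Exon 1 replicates 2 and 3 were higher than replicates 1 and 4.

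PR5, a thaumatin-like protein, was also among the 15 largest rises. PR5 (AT1G75040) read 8.85, 9.65, 9.71 and 8.22 on the exon 1 arrays and 5.38, 4.87, 4.97 and 5.21 on the WT arrays. It rose by 4.00 (SE 0.50, adjusted p = 7.74e-05). AT2G43570 (CHI), annotated as a chitinase, rose by 4.74 (adjusted p = 1.42e-05), and CML41, a calmodulin-like protein, by 4.28 (adjusted p = 2.88e-05). The receptor genes RLP41 (4.64), CRK23 (4.17), CRK6 (4.11), CRK7 (4.08), RLP38 (3.88) and RK1 (3.76) were among the 15 largest rises, as were the cytochrome P450 CYP71B23 (3.86), the glutamate receptor-like channel GLR2.8 (3.86) and the nitrilase NIT2 (3.73, from a WT mean among the dimmest 30%). ABCG40, an abscisic acid importer, rose by 3.92 (adjusted p = 0.0202), but its call was lost without exon 1 replicate 2 (adjusted p = 0.074) or 3 (adjusted p = 0.0686). Another 4 loci with no symbol of their own rose as far as the 15th of these.

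**Figure D3:**
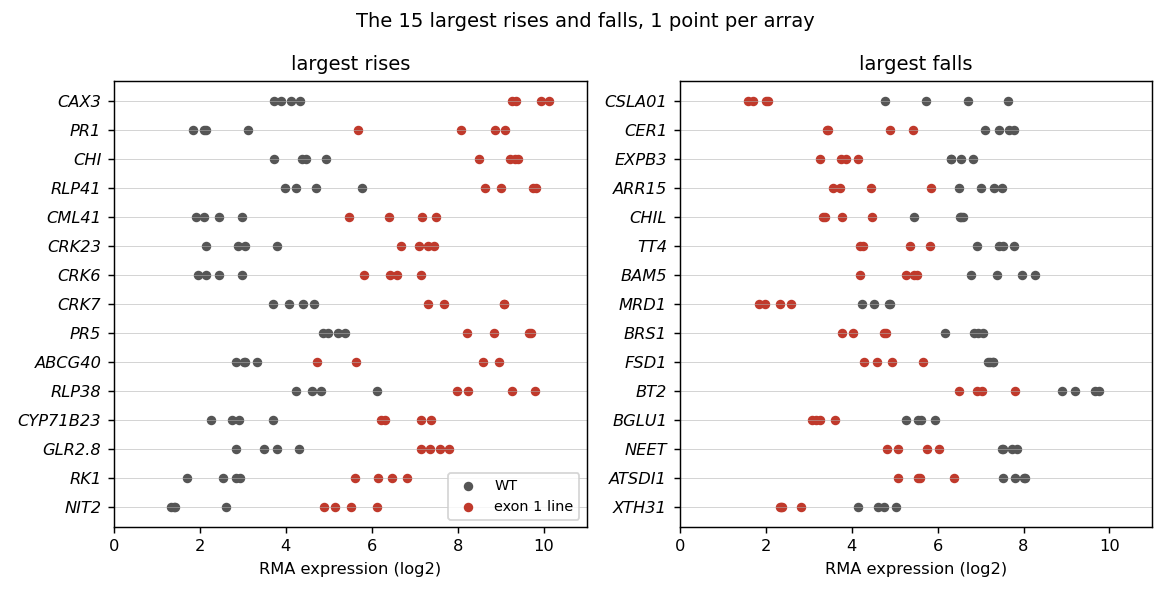
RMA expression (log2) of the 15 named genes with the largest rises (left) and falls (right), with 1 point per array, grey for WT and red for the exon 1 line. The genes were chosen by size among those whose groups do not overlap, so the gap between red and grey points is part of the choice. Its size, from 2.15 to 5.65 between the means, may be overstated for the same reason.

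Salicylic acid is the hormone of defence against biotrophic pathogens, and pipecolate is its partner signal. Of 14 measured genes that make or regulate them, 9 rose and 0 fell, 3 of these being genes of salicylic acid synthesis, 6 regulators and 0 pipecolate enzymes, with a median difference of 1.96. EDS16 (AT1G74710) read 5.98, 7.28, 7.32 and 6.08 on the exon 1 arrays and 4.74, 4.66, 4.48 and 4.86 on the WT arrays. EDS16 encodes the isochorismate synthase of salicylic acid synthesis and rose by 1.99 (SE 0.44, adjusted p = 0.00514). Exon 1 replicates 2 and 3 were the highest, and no exon 1 array lay among WT. EDS5, which exports isochorismate from the plastid, rose by 2.04 (adjusted p = 0.0149), and PBS3, which conjugates isochorismate to glutamate, by 2.21 (adjusted p = 0.0206). Both calls were lost without exon 1 replicate 2 or 3, with adjusted p of 0.0538 to 0.0557 for EDS5 and 0.0697 to 0.0771 for PBS3.

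The regulators upstream of this step rose too. ACD6, a membrane protein upstream of salicylic acid build-up, read 9.82, 10.17, 10.73 and 9.99 against 7.58, 7.80, 7.14 and 7.99 in WT and rose by 2.55 (SE 0.20, adjusted p = 1.77e-06). The transcription factors SARD1 and CBP60G rose by 3.01 (adjusted p = 0.000246) and 0.90 (adjusted p = 0.0175), the latter a call lost without exon 1 replicate 2 or 3 or WT replicate 2 (adjusted p of 0.0558 to 0.067). EDS1 (1.61), PAD4 (1.37) and NDR1 (1.62), which act downstream of resistance proteins, were all called. For the pipecolate enzymes ALD1 (3.41, adjusted p = 0.0508) and FMO1 (1.92, adjusted p = 0.215) the differences did not pass the test, though ALD1 passed in 6 alternatives (adjusted p of 0.0142 to 0.0425), among them the fits without exon 1 replicate 1 or 4.

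Of 12 receptors of salicylic acid and their partners, 5 rose and 0 fell (median 0.84). NPR1, the receptor that activates transcription, rose by 1.15 (SE 0.16, adjusted p = 0.000212), with 5.87, 6.26, 6.29 and 6.40 on the exon 1 arrays and 4.79, 5.19, 4.86 and 5.37 on the WT arrays. The receptors NPR3 and NPR4, which act as co-repressors, rose by 1.35 (adjusted p = 0.00443) and 1.44 (adjusted p = 0.000414). Of the TGA factors that bind NPR1, TGA1 (1.0) and OBF5 (0.91, TGA5) rose, and TGA3 (-0.04), TGA4 (-0.28) and TGA6 (-0.05) did not pass.

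Among 9 output genes of this pathway, 7 rose and 0 fell, with the list mean at 5.33 to 6.92 on the exon 1 arrays and 3.23 to 3.98 on the WT arrays. Besides PR1 and PR5 they include DMR6 (3.22, adjusted p = 2.78e-05) and AT4G10500 (3.67, adjusted p = 0.0023), hydroxylases that inactivate salicylic acid, and SAG13 (2.53, adjusted p = 0.00508). BGL2, the glucanase PR2, rose by 0.59 (adjusted p = 0.0415), a call lost without exon 1 replicate 1, 2 or 4 or WT replicate 2, 3 or 4 (adjusted p of 0.0624 to 0.124).

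Receptors of the immune system rose in all 4 families listed. Of 16 intracellular NLR receptors, which detect pathogen effectors, 11 rose and 0 fell (median 0.58). RPS2 (AT4G26090) read 4.13, 4.63, 5.06 and 4.62 on the exon 1 arrays and 3.06, 3.0, 2.49 and 3.42 on the WT arrays. All exon 1 arrays lay above all WT arrays. RPS2 rose by 1.62 (SE 0.22, adjusted p = 0.000144), and the helper receptors ADR1, ADR1-L1 and ADR1-L2 by 0.83, 1.59 and 0.79. WT replicate 4 was the highest WT array in the NLR list mean, which was 5.74 to 6.12 on the exon 1 arrays and 5.21 to 5.39 on the WT arrays.

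Of 38 cysteine-rich receptor-like kinases, 19 rose and CRK31 alone fell (-1.0, adjusted p = 0.0095), with a median of 0.67. CRK23 (AT4G23310) read 6.69, 7.30, 7.43 and 7.10 on the exon 1 arrays and 3.04, 2.89, 3.79 and 2.14 on the WT arrays. It rose by 4.17 (SE 0.39, adjusted p = 7.19e-06), and CRK4 and CRK18 rose by 2.45 and 1.62. Of 52 receptor-like proteins, 25 rose and RLP6 alone fell (-0.62, adjusted p = 0.0364), with a median of 0.59. The call of RLP6 was lost with the replicate block (adjusted p = 0.0578) and without exon 1 replicate 2 or 4 or WT replicate 1, 2 or 4 (adjusted p of 0.0624 to 0.11). RLP23, the receptor of the nlp20 peptide of microbial toxins, read 8.39, 9.14, 9.35 and 9.0 against 5.62, 5.70, 5.63 and 6.44 in WT and rose by 3.12 (SE 0.29, adjusted p = 6.11e-06). Many members of both families lie in tandem arrays of similar genes, and the specificity of the probes was not given.

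Of 19 surface receptors and their signalling partners, 13 rose and 0 fell (median 0.81), a count that was 8 without exon 1 replicate 3. SOBIR1, the co-receptor kinase of receptor-like proteins, rose by 1.44 (adjusted p = 0.000365). The flagellin receptor FLS2 rose by 0.92 (adjusted p = 0.00399), the chitin receptors CERK1 and LYK5 by 0.81 (adjusted p = 0.00426) and 1.43 (adjusted p = 0.00308), and the mitogen-activated kinase MPK3 by 0.68 (adjusted p = 0.00424). RBOH F, an NADPH oxidase, rose by 1.1 (adjusted p = 0.0124), while RBOHD was at -0.01 (adjusted p = 0.973).

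More WRKY transcription factors rose than fell. Of 67 measured, 14 rose and 4 fell, which is above the share of all probe sets for rises and below it for falls, with a median of 0.26. WRKY58 (1.96, adjusted p = 0.000238), WRKY47 (1.58, adjusted p = 0.000397), WRKY46 (2.03, adjusted p = 0.000639) and WRKY70 (1.98, adjusted p = 0.00783), the last an integrator of salicylic acid and jasmonate signals, rose. WRKY27 fell by 1.5 (SE 0.19, adjusted p = 8.36e-05), from 4.74, 5.12, 4.84 and 4.69 on the WT arrays to 3.45, 3.17, 3.42 and 3.35 on the exon 1 arrays, and WRKY7 fell by 0.88 (adjusted p = 0.000349).

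Calcium transporters rose beyond CAX3. Of 11 measured, 7 rose and 0 fell (median 0.79). ACA10 (AT4G29900) read 8.62, 8.91, 8.99 and 8.77 on the exon 1 arrays and 7.61, 7.65, 7.72 and 7.89 on the WT arrays. ACA10, a calcium-pumping ATPase, rose by 1.1 (SE 0.12, adjusted p = 2.17e-05) without overlap. The exchangers CAX1, CAX2 and CAX5 rose by 0.83, 0.75 and 1.27, and CAX4 was at -0.07 (adjusted p = 0.81). Of 8 calmodulin-like proteins CML41 was the 1 that rose, and the next smallest adjusted p was that of CML42 (0.32, adjusted p = 0.182).

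Genes of endoplasmic reticulum folding, polyubiquitin and autophagy were higher, with replicates 2 and 3 of the exon 1 line highest for folding genes. Of 23 folding genes of the endoplasmic reticulum, 15 rose and 0 fell (median 0.90). BIP3 (AT1G09080) read 4.04, 7.59, 7.93 and 5.36 on the exon 1 arrays and 3.73, 3.11, 3.33 and 3.07 on the WT arrays. BIP3 is a chaperone of the HSP70 class made during folding stress in the endoplasmic reticulum, and it rose by 2.92 (SE 0.75, adjusted p = 0.0115). The groups did not overlap, but exon 1 replicate 1 lay well below replicates 2 and 3. CRT3, a calreticulin needed for maturation of surface receptors, rose by 1.84 (adjusted p = 0.000284), the disulfide isomerase PDIL1-2 by 2.40 (adjusted p = 0.00436) and SHD, the reticulum's HSP90, by 1.45 (adjusted p = 0.00725). The count of 15 dropped to 5 without exon 1 replicate 2, to 6 without exon 1 replicate 3 or WT replicate 1, to 9 without WT replicate 2 and to 8 without WT replicate 3.

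Few heat shock genes of the cytosol were called. Of 16 heat shock genes 1 was called, HSF4 (1.06, adjusted p = 0.0303), and this call was lost without exon 1 replicate 2 or 3 or WT replicate 1, 2 or 3. The count was 3 with only the arrays of both groups in the fit, and 2 without exon 1 replicate 4, WT replicate 4 or the dimmest probe sets. HSP90.1 was at 1.44 (adjusted p = 0.0887), passing with only the arrays of both groups (adjusted p = 0.0328), and HSP101 at -0.32 (adjusted p = 0.61). Of 5 polyubiquitin genes, 4 rose, with UBQ10 at 7.92, 8.07, 7.87 and 7.97 against 7.06, 7.12, 7.11 and 7.46 in WT, a rise of 0.77 (SE 0.11, adjusted p = 0.000189). Polyubiquitin genes share their repeat sequence, so signal may be shared between them.

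Of 22 proteasome genes, 8 rose and 0 fell, with a median of 0.19. The largest were PA200, an activator cap (1.1, adjusted p = 0.00311), and NAC053, a transcription factor of proteasome genes (1.0, adjusted p = 0.00276). The core subunits PBA1 (0.20, adjusted p = 0.361) and PBF1 (0.17, adjusted p = 0.494) did not pass. The count was 2 without exon 1 replicate 2, 4 without exon 1 replicate 3 or WT replicate 2 or 3 and 5 without WT replicate 1 or 4.

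Of 18 autophagy genes, 9 rose and 0 fell (median 0.51). APG8A (AT4G21980) read 3.48, 4.22, 3.40 and 3.70 on the exon 1 arrays and 2.60, 2.46, 1.97 and 2.24 on the WT arrays. APG8A, the ubiquitin-like protein of the autophagosome membrane, rose by 1.38 (SE 0.25, adjusted p = 0.00129), and its groups did not overlap. The large scaffold ATG2 rose by 0.95 (adjusted p = 0.0013), APG7, which activates the ATG8 proteins, by 0.83 (adjusted p = 0.00138), and NBR1, a cargo receptor, by 0.81 (adjusted p = 0.00848). In the N-degron pathway, which reads the N-termini of proteins, 2 of 9 genes rose (22.2% called, against 19.6% of all probe sets). The median of these 9 genes was -0.03, with 6 negative differences. The 2 that rose were the ubiquitin ligases PRT6 (0.64, adjusted p = 0.00306) and BIG (0.71, adjusted p = 0.000591), while PRT1 (-0.16, adjusted p = 0.54) and the arginyltransferase ATE1 (0.15, adjusted p = 0.489) did not pass.

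Of 12 genes of leaf senescence, 6 rose and 0 fell (median 0.63). SEN1 (AT4G35770) read 7.52, 8.13, 7.87 and 7.45 on the exon 1 arrays and 5.35, 5.06, 5.74 and 5.75 on the WT arrays. SEN1, a gene induced by darkness and ageing, rose by 2.27 (SE 0.29, adjusted p = 9.09e-05) without overlap. The asparagine synthetase ASN1 rose by 1.72 (adjusted p = 0.000113) and NYE1, which starts chlorophyll breakdown, by 0.64 (adjusted p = 0.00786). SAG12, a protease of late senescence, was at 0.07 (adjusted p = 0.795).

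Of 9 genes induced by mitochondrial stress, 5 rose and 1 fell. AOX1D, an alternative oxidase, rose by 2.66 (adjusted p = 0.0091), the NAD(P)H dehydrogenases NDB2 and NDA2 by 1.56 (adjusted p = 0.00257) and 1.64 (adjusted p = 0.00705), and BCS1, a mitochondrial ATPase of the outer membrane, by 1.44 (adjusted p = 0.00206). NDA1 fell by 0.86 (SE 0.20, adjusted p = 0.00731), and AOX1A was at 0.81 (adjusted p = 0.091) and passed without WT replicate 4 (1.06, adjusted p = 0.028). Of 16 hypoxia genes 3 rose, EBP (1.15, RAP2.3), SUS1 (1.17, sucrose synthase) and AlaAT1 (0.79), and 1 fell, LBD41 (-0.89), while the alcohol dehydrogenase ADH1 was at 0.07 (adjusted p = 0.843). The share of hypoxia genes called (25%) was near that of all probe sets (19.6%). Of 92 mitochondrion-encoded probe sets, 26 were higher and 7 lower (35.9% called), with list means of 7.03 to 7.18 on the exon 1 arrays and 7.0 to 7.20 on the WT arrays, which overlap.

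The largest falls included genes of the cell wall, the cuticle, cytokinin and flavonoids. CSLA01 (AT4G16590) read 1.60, 2.01, 2.05 and 1.70 on the exon 1 arrays and 5.73, 4.77, 6.71 and 7.63 on the WT arrays. CSLA01, a member of the family of glucomannan synthases, fell by 4.37 (SE 0.41, adjusted p = 7.19e-06), and its exon 1 values lay around the level of the dimmest 30% of probe sets (1.83). CER1 (AT1G02205) read 5.42, 3.43, 3.44 and 4.89 on the exon 1 arrays and 7.10, 7.79, 7.67 and 7.42 on the WT arrays. CER1, which forms the alkanes of the leaf wax, fell by 3.20 (SE 0.42, adjusted p = 0.000139). Both genes were chosen by the size of their falls among those without overlap between the groups. The gap is therefore part of the choice, and the size may be overstated.

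Others among the 15 largest falls were the beta-amylase BAM5 (-2.49), MRD1 (-2.44), the carboxypeptidase BRS1 (-2.41), the BTB domain protein BT2 (-2.31), the glucosidase BGLU1 (-2.31), the iron-sulphur protein NEET (-2.23) and the xyloglucan-modifying enzyme XTH31 (-2.15). Another 14 loci with no symbol of their own fell as far. ATSDI1 (-2.195) was also among the 15 largest falls and is given below with the sulphate genes.

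Of 12 expansins, proteins that loosen walls of growing cells, 5 fell and 1 rose (median -0.66). EXPB3 (AT4G28250) read 4.14, 3.86, 3.76 and 3.26 on the exon 1 arrays and 6.82, 6.32, 6.30 and 6.54 on the WT arrays. EXPB3 fell by 2.74 (SE 0.23, adjusted p = 2.67e-06). EXPA11, EXP3 and EXPA4 fell by 1.93, 1.65 and 1.55, and EXLA1, an expansin-like gene, rose by 1.64 (adjusted p = 0.044), a call lost without exon 1 replicate 1, 3 or 4 or WT replicate 1, 2 or 4 (adjusted p of 0.058 to 0.138). Of 8 mannan and primary wall cellulose synthases 4 fell: CSLA01, ATCSLA09 (-1.25), CSLA02 (-0.81) and CESA5 (-0.52), while CESA1 was at -0.28 (adjusted p = 0.189).

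Of 18 wax genes, 5 fell and 2 rose. CER3, which works with CER1, was at 0.47 (adjusted p = 0.142), and CER4, the alcohol-forming reductase, at 0.01 (adjusted p = 0.989). The count of 7 dropped to 3 without exon 1 replicate 2 or 3, to 2 without WT replicate 1 or 2 and to 1 without WT replicate 3. CER1 stayed called in each of these fits.

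Genes that respond to cytokinin, a hormone of cell division and leaf growth, were lower. Of 10 type-A response regulators, which are induced by cytokinin and dampen its signal, 6 fell and 0 rose (median -1.16). ARR15 (AT1G74890) read 5.84, 3.73, 4.45 and 3.56 on the exon 1 arrays and 7.49, 7.31, 7.01 and 6.49 on the WT arrays. It fell by 2.68 (SE 0.51, adjusted p = 0.00176), with exon 1 replicate 1 nearest to WT. ARR6 (AT5G62920) read 5.81, 4.53, 5.09 and 5.32 on the exon 1 arrays and 7.28, 7.40, 7.19 and 7.04 on the WT arrays. This gene fell by 2.03 (SE 0.27, adjusted p = 0.000158), and RR5 and ARR7 fell by 1.68 and 1.38. The groups did not overlap for ARR6, while ARR15 was chosen among genes without overlap.

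Upstream of these, WOL, the cytokinin receptor also called AHK4, fell by 1.39 (SE 0.14, adjusted p = 1.03e-05), while the receptors HK2 (-0.27, adjusted p = 0.438) and HK3 (0.13, adjusted p = 0.385) did not pass. The activating type-B regulators RR1 and RR2 rose by 0.69 (adjusted p = 0.00557) and 1.1 (adjusted p = 0.00114). CKX6, which degrades cytokinin, fell by 1.17 (adjusted p = 0.00221), and the synthesis genes IPT3 (-0.30, adjusted p = 0.348) and IPT7 (-0.19, adjusted p = 0.397) did not pass. In all, 3 of these 18 genes rose and 2 fell (27.8% called, against 19.6% of all probe sets).

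Genes of the photosynthetic apparatus were lower by small amounts. Of 39 nuclear genes of the photosystems and light harvesting, 23 fell and 0 rose, with a median of -0.33 and the largest fall -0.82. PSBP-1 (AT1G06680) read 9.75, 9.45, 9.78 and 9.77 on the exon 1 arrays and 10.42, 10.43, 10.55 and 10.26 on the WT arrays. PSBP-1 belongs to the oxygen-evolving complex of photosystem II, and it fell by 0.72 (SE 0.12, adjusted p = 0.000537). Exon 1 replicate 2 was the lowest, and the groups did not overlap. PSAN, a subunit of photosystem I, fell by 0.82 and NPQ4, the sensor of excess light, by 0.75. The count of 23 was 12 without exon 1 replicate 2 and 15 without WT replicate 3.

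Of 19 Calvin cycle genes, 7 fell and 0 rose (median -0.27), a count that was 4 without exon 1 replicate 2. GAPB, a subunit of glyceraldehyde phosphate dehydrogenase, fell by 0.53 (adjusted p = 0.00277) and RBCS2B, a Rubisco small subunit, by 0.86. Of 15 genes of chlorophyll synthesis, 6 fell and 0 rose (median -0.40). FLU, which restrains the pathway in darkness, fell by 0.98 (SE 0.13, adjusted p = 0.000129), and the protochlorophyllide reductases PORB and POR C by 0.92 and 1.03. Of 14 plastid-encoded probe sets 2 were lower, 1 without exon 1 replicate 3.

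Flavonoid genes fell widely. Of 16 measured, 12 fell and 0 rose, with a median of -0.98. TT4 (AT5G13930) read 5.83, 4.2, 4.26 and 5.37 on the exon 1 arrays and 7.51, 7.43, 7.78 and 6.91 on the WT arrays. TT4, the chalcone synthase that opens the pathway, fell by 2.49 (SE 0.42, adjusted p = 0.000766), though exon 1 replicates differ by over 1 unit. F3H (AT3G51240) read 6.47, 5.94, 6.08 and 6.04 on the exon 1 arrays and 7.60, 7.82, 7.83 and 7.47 on the WT arrays. F3H, the flavanone hydroxylase, fell by 1.55 (SE 0.18, adjusted p = 5.01e-05), with all exon 1 arrays below all WT arrays. The chalcone isomerase TT5 and the flavonol synthase FLS1 fell by 1.38 and 1.34. CHIL, a chalcone isomerase-like protein outside the list, fell by 2.54 (SE 0.36, adjusted p = 0.000254). Of the regulators, MYB111 fell by 0.88, PAP1 by 1.34 and HY5 by 1.08. The call of HY5 was lost without WT replicate 1 (adjusted p = 0.053) and that of PAP1 without exon 1 replicate 1 or 3 or WT replicate 1, 3 or 4 (adjusted p of 0.055 to 0.0805). DFR, the first enzyme towards anthocyanins, was at -1.75 (adjusted p = 0.0671) and passed without WT replicate 1 or 2 (adjusted p of 0.0399 and 0.0143).

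Genes of glucosinolates, the sulphur-rich defence compounds of this plant family, were called in both directions. Of 16 aliphatic glucosinolate genes, 1 rose and 3 fell, and the share called (25%) was near that of all probe sets (19.6%). The median of this list was -0.36, with 14 negative and 2 positive differences. In all, 2 were called without exon 1 replicate 1 or 4 or WT replicate 1, 3 or 4. IMS2, the chain-elongating synthase MAM3, rose by 1.99 (SE 0.29, adjusted p = 0.000289), and BCAT3, an aminotransferase, fell by 1.07 (SE 0.19, adjusted p = 0.00103). Of 20 genes of indole glucosinolates and camalexin, 6 rose and 3 fell. CYP71A13 (2.66, adjusted p = 0.0105) and PAD3 (1.80, adjusted p = 0.0279), enzymes of camalexin, an antimicrobial compound, rose, and CYP79B3, which makes the shared precursor, fell by 1.11 (SE 0.27, adjusted p = 0.00901). The call of PAD3 was lost without exon 1 replicate 2 or 3 or WT replicate 1 or 3 (adjusted p of 0.0562 to 0.0909).

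Of 18 genes of sulphate uptake and reduction, 6 fell and 0 rose (median -0.15). The largest fall in this list was that of ATSDI1 (AT5G48850), at -2.195 (SE 0.38, adjusted p = 0.000942) without overlap. SULTR4;2 (AT3G12520) read 4.69, 4.11, 4.18 and 4.61 on the exon 1 arrays and 5.86, 6.25, 5.82 and 6.33 on the WT arrays. SULTR4;2, a vacuolar sulphate exporter, fell by 1.66 (SE 0.21, adjusted p = 8.56e-05) without overlap. The transporter SULTR2;1 fell by 0.89 and the sulphur deficiency response gene LSU1 by 1.11, while the reductases APR1 (-0.14, adjusted p = 0.682), APR2 (-0.16, adjusted p = 0.637) and APR3 (0.15, adjusted p = 0.754) did not pass.

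Superoxide dismutases, which detoxify superoxide, moved in both directions. Of 13 genes of these enzymes and of copper supply, 2 rose and 6 fell (median -0.31). FSD1 (AT4G25100) read 5.65, 4.6, 4.94 and 4.29 on the exon 1 arrays and 7.29, 7.17, 7.29 and 7.22 on the WT arrays. FSD1, the iron enzyme of the chloroplast stroma and cytosol, fell by 2.37 (SE 0.28, adjusted p = 6.11e-05), and FSD2 and the manganese enzyme MSD1 fell by 0.69 and 0.49. The copper/zinc enzyme CSD1 rose by 0.88 (adjusted p = 0.0163) and its copper chaperone CCS by 0.92 (adjusted p = 0.000284). The call of CSD1 was lost without exon 1 replicate 2 or 3 (adjusted p of 0.0627 and 0.0565). SPL7, the regulator of copper responses, was at -0.15 (adjusted p = 0.468).

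Of 31 jasmonate genes, 1 rose and 6 fell (median -0.29), and the share called (22.6%) was near that of all probe sets (19.6%). JMT, which methylates jasmonate, fell by 1.97 (SE 0.23, adjusted p = 5.58e-05), the storage protein VSP2 by 1.24, the transcription factor MYC2 by 0.90 and the receptor COI1 by 0.44, while the aminotransferase TAT3 rose by 3.09 (adjusted p = 0.011). The call of MYC2 was lost without exon 1 replicate 1 or 3 or WT replicate 3 or 4 (adjusted p of 0.0576 to 0.0842). The list means overlapped, at 5.64 to 6.57 on the exon 1 arrays and 6.02 to 6.96 on the WT arrays.

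Of 28 genes of abscisic acid and drought responses, 3 rose and 4 fell (25% called, near the 19.6% of all probe sets). In all, 4 were called without exon 1 replicate 3 or WT replicate 4. AAO3, the last enzyme of abscisic acid synthesis, rose by 1.17 (adjusted p = 0.000262), and COR15A, a cold and drought protein, fell by 1.84 (SE 0.42, adjusted p = 0.00577). Of 25 clock genes, 2 rose and 3 fell, which is about the share of all probe sets (20% against 19.6%). In all, 2 or 3 were called without exon 1 replicate 2, 3 or 4 or WT replicate 1, 2 or 3. RVE1 fell by 1.22 (SE 0.27, adjusted p = 0.00441) and CDF2 by 0.70, while CCA1 was at -0.16 (adjusted p = 0.327) and LHY at 0.24 (adjusted p = 0.0916), the latter passing with an intensity trend (adjusted p = 0.0427).

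**Figure D4:**
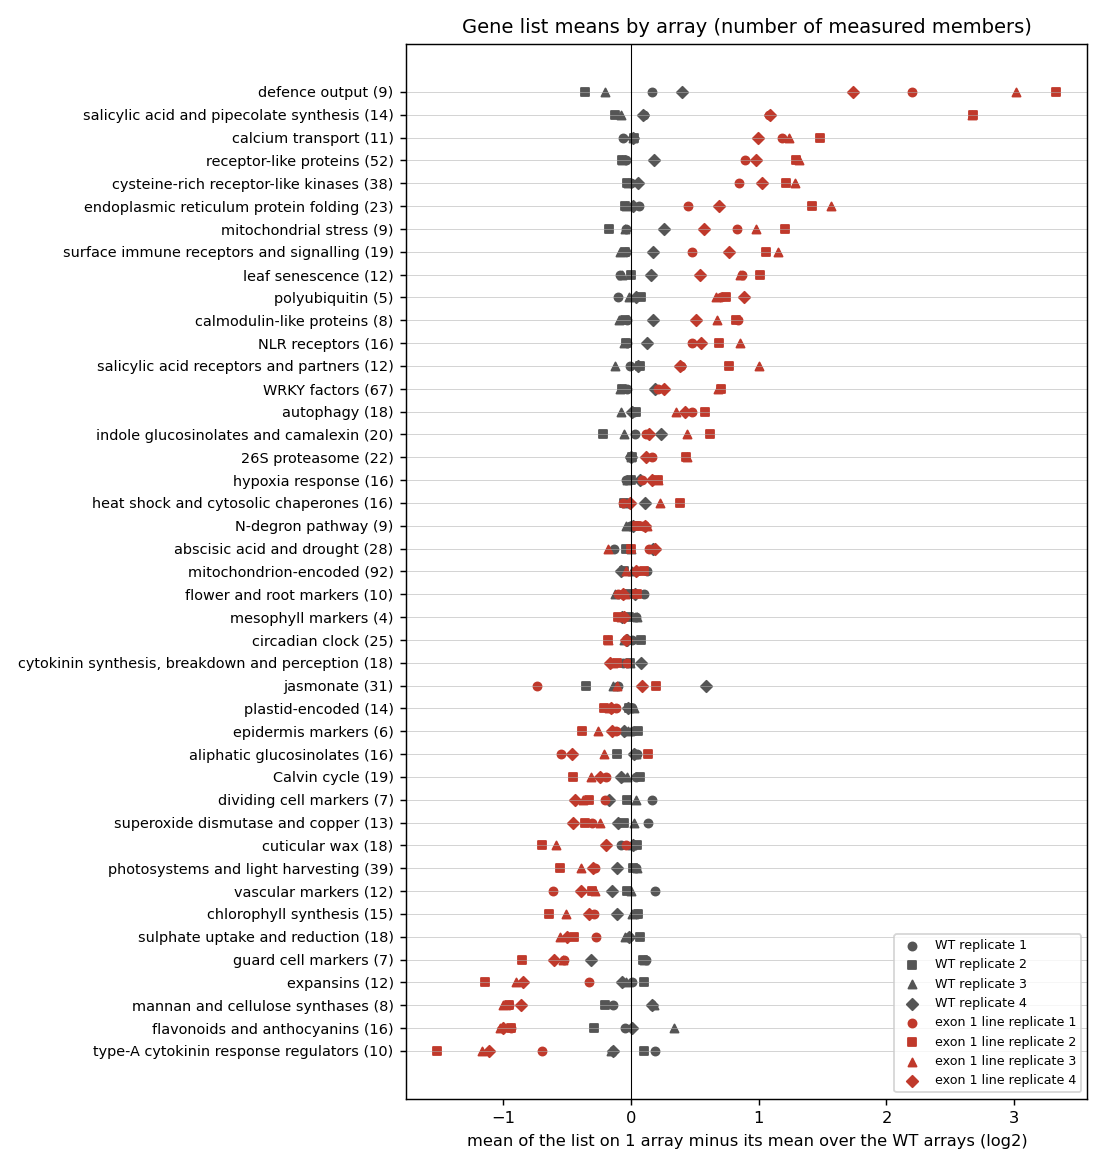
Mean expression of each gene list on each of 8 arrays, relative to the mean of that list over the 4 WT arrays (log2), with grey for WT, red for the exon 1 line and 1 symbol per replicate number. The defence output and salicylic acid lists lie furthest right, with exon 1 replicates 2 and 3 furthest, and the type-A response regulators lie furthest left.

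Both HYPK insertion lines were then set side by side. By limma's test, 2 of 27826 probe sets differed between them (0.00719%), and 1220 had an unadjusted p under 0.05. AT3G06600, the locus next to HYPK, read 3.68, 3.86, 4.09 and 3.25 in the exon 2 line against 1.95, 1.56, 1.55 and 1.88 in the exon 1 line, a difference of -1.98 (SE 0.15, adjusted p = 1.23e-05). AT4G10695 read 4.47, 4.07, 4.11 and 4.46 in the exon 2 line against 1.75 to 2.23 on the exon 1 arrays, a difference of -2.27 (SE 0.20, adjusted p = 5.43e-05). For both loci it was the exon 2 line that stood apart, and the exon 1 line lay near WT.

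A p over the threshold does not show that the lines are alike, and the 95% intervals, which are not adjusted for the number of probe sets, were wide for genes that vary between replicates. HYPK was lower in the exon 1 line than in the exon 2 line by 0.68 (interval -0.95 to -0.41, adjusted p = 0.381), with 5.52, 5.66, 5.38 and 5.04 in the exon 2 line, all above the exon 1 arrays. The difference was 0.47 for CAX3 (interval -0.17 to 1.11, adjusted p = 0.997) and 2.06 for PR1 (interval 0.11 to 4.00, adjusted p = 0.997).

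Against amiNAA10, the exon 1 line differed at 1505 probe sets (5.41%), 728 higher (2.62%) and 777 lower (2.79%). NAA10 itself was higher in the exon 1 line by 1.95 (SE 0.12, adjusted p = 1.92e-07), with 2.96, 2.97, 2.64 and 2.97 on the amiNAA10 arrays. The count of 1505 was 786, 954 and 950 without exon 1 replicate 1, 3 and 4 and 674 and 638 without amiNAA10 replicate 2 and 3. Both this comparison and that with WT use the same exon 1 arrays.

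The 5 genes named as lower in the exon 1 line were chosen among those without overlap between this line and amiNAA10. In these 5 genes every amiNAA10 array also lay above every WT array. PDF1, an epidermal protein, read 5.19, 6.32, 6.55 and 3.54 in amiNAA10, 1.70, 1.58, 1.79 and 1.75 in the exon 1 line and 2.11, 2.03, 2.04 and 1.87 in WT, and the lines differed by -3.69 (SE 0.43, adjusted p = 0.00026). SPCH, the factor that starts the stomatal lineage, read 3.60, 5.04, 4.92 and 2.96, 1.90, 1.42, 1.94 and 1.55 and 2.46, 2.46, 2.06 and 1.77 in the same order, and the lines differed by -2.43 (SE 0.34, adjusted p = 0.0012). The exon 1 and WT arrays of both genes read 2.46 or less. GER3, a germin-like protein, read 7.0, 6.66, 7.33 and 5.95 in amiNAA10, 3.56, 3.23, 1.97 and 3.37 in the exon 1 line and 5.89, 5.21, 5.18 and 3.79 in WT, and differed by -3.70 (SE 0.50, adjusted p = 0.000896). The exon 1 line was also below WT here, by 1.98 (adjusted p = 0.0108). The lipase LTL1 differed between the lines by -3.42 (SE 0.48, adjusted p = 0.00129) and PEL3 by -2.33 (SE 0.49, adjusted p = 0.0116), the last a call lost with only the arrays of both groups in the fit (adjusted p = 0.056).

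Genes higher in the exon 1 line than in amiNAA10 included MIR841a, with 6.51, 6.26, 6.01 and 6.29 in the exon 1 line, 4.13, 2.97, 2.70 and 4.04 in amiNAA10 and 5.14, 5.57, 5.02 and 5.15 in WT, a difference between the lines of 2.81 (SE 0.26, adjusted p = 4e-05). The neighbouring locus HTA4, a histone H2A gene, differed by 1.98 (SE 0.21, adjusted p = 0.000198). Both loci were above WT on the exon 1 arrays and below it on the amiNAA10 arrays. The kinase CIPK20 differed by 2.18 (SE 0.39, adjusted p = 0.00511), the expansin EXPA8 by 1.80 (SE 0.36, adjusted p = 0.0087) and the fumarase FUM2 by 1.88 (SE 0.47, adjusted p = 0.0288), the last a call lost without exon 1 replicate 2, 3 or 4 or amiNAA10 replicate 2 or 3. Against WT, CIPK20, EXPA8 and FUM2 were at -0.87, -0.65 and -0.27 in the exon 1 line, which did not pass the test, and at -3.05, -2.45 and -2.15 in amiNAA10. Of the 39 genes of the photosystems, 17 were higher in the exon 1 line than in amiNAA10 and 0 lower. The median of this list was below WT in both lines, at -0.33 in the exon 1 line and -0.76 in amiNAA10.

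**Figure D5:**
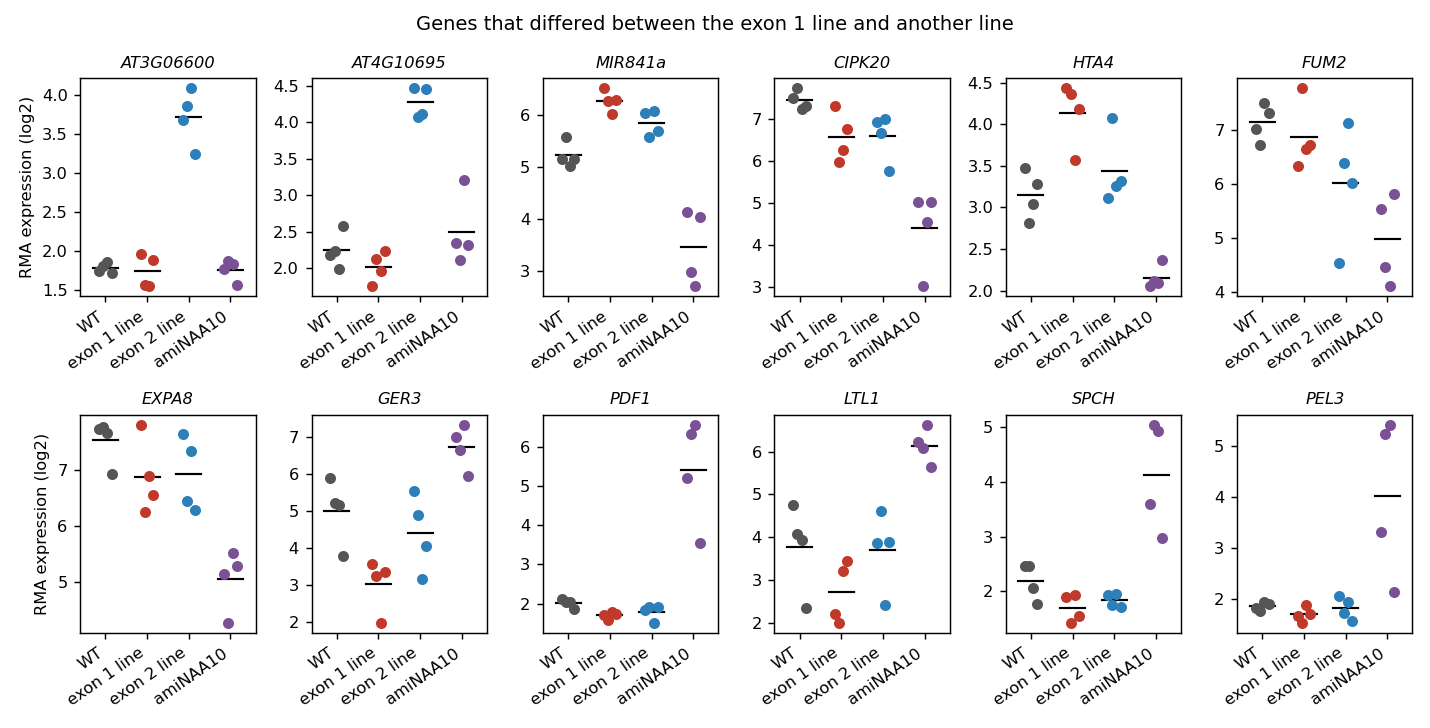
RMA expression (log2) of the 2 loci called between the insertion lines and of the 10 genes named between the exon 1 line and amiNAA10, in 4 genotypes, with 1 point per array and a bar at the mean of 4. The vertical axes differ between panels and do not start at 0; AT3G06600 and AT4G10695 are high in the exon 2 line alone, and GER3, PDF1, LTL1, SPCH and PEL3 are highest in amiNAA10.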

How the data were processed

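Each probe set has 1 deposited log2 value on each array, made by the authors with RMA, per the submitters' processing notes. The values of the 16 arrays have one distribution (sorted arrays differ by at most 0.0019), so a shift of all transcripts would be removed. No source used here names the array design, software version or probe annotation, and arrays carry no read depth, so the number of arrays limits the precision. Probe sets are named by locus code. Of 27826, 27241 matched a RefSeq gene table (TAIR10.1), used for symbols and gene order, and 10555 have a symbol of their own. The codes of HYPK (AT3G06610), NAA10 and NAA50 were matched from knowledge of the study, since the table gives no such symbols.

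From these values, limma 3.58.1 in R 4.3.3 fitted a mean per genotype on all 16 arrays, with Benjamini-Hochberg adjustment over all probe sets at 0.05. The code was tested on simulated data. Named genes are the 15 largest rises and falls among genes with their own symbol, a call and no overlap between groups; the 5 largest each way against the other lines by the same rule (for the exon 2 line, the called loci, which have no symbol); HYPK, NAA10, NAA15, NAA50 and the 5 loci on each side of HYPK; up to 5 members of each list by adjusted p; and list members with a stated role. CRK31, RLP6, EXLA1 and other single exceptions were named after their values were seen. The members and the 41 gene lists, with 2 lists of organelle-encoded genes, were chosen with earlier results of these data known, so lists are given as counts and medians with no test. Of the list members, 18 were left out because code and symbol could not be matched, and 3 were not measured. Alternatives were the arrays of the groups compared alone, the exon 2 fit without replicate 4 (which stands apart), an intensity trend, a robust prior, removal of the dimmest 30% of probe sets, the replicate number as a block, single arrays left out and a test against a 1.5-fold change.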

Additional observations from a re-analysis of the deposited data

Results flagged for a closer look

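In 33 of 508 sets of 4 arrays tested, over 211 genes and 43 lists in both groups, 1 array lay further from the others than Dixon's test allows at 95%. Chance flags about 1 group in 20, and the genes are not independent of each other. In 13 of these the array was WT replicate 4. It lay above the other WT arrays for NIT2 (2.60 against 1.33 to 1.41), RLP23 (6.44 against 5.62 to 5.70), CRT3 (7.14 against 6.56 to 6.65), UBQ10 (7.46 against 7.06 to 7.12), NBR1 (7.60 against 7.40 to 7.42), the mean of the list for NLR receptors (5.39 against 5.22 to 5.23), the mean of the list for receptor-like proteins (3.46 against 3.21 to 3.24). It lay below them for CHIL (5.45 against 6.51 to 6.59), EXPA8 (6.92 against 7.65 to 7.76), PSAN (10.22 against 10.43 to 10.46), FLU (5.72 against 6.01 to 6.06), PRT1 (3.84 against 4.04 to 4.06), and the mean of the list for guard cell markers (4.82 against 5.22 to 5.24). Each of these values lies towards the exon 1 line, and without this array the comparison with WT gave 5156 calls. Why it stands apart was not tested. WT replicate 1 stood apart for AT4G10500 (2.86 against 1.84 to 1.99), EXPA11 (5.17 against 5.59 to 5.67), CCS (7.21 against 6.70 to 6.78), RBCS1A (12.72 against 12.75 to 12.75), CRK31 (3.78 against 2.89 to 3.04), the mean of the list for calcium transport (4.70 against 4.78 to 4.79). WT replicate 2 stood apart for BIG (7.88 against 8.07 to 8.10), CCA1 (10.18 against 10.05 to 10.07), the mean of the list for aliphatic glucosinolates (5.20 against 5.33 to 5.35). WT replicate 3 stood apart for RR5 (5.46 against 6.31 to 6.47), HK2 (6.18 against 5.92 to 5.96). Exon 1 replicate 1 stood apart for ATG2 (6.70 against 6.99 to 7.03), RVE1 (8.74 against 8.12 to 8.16), CESA4 (4.14 against 4.65 to 4.71), SYP111 (2.04 against 2.36 to 2.42), CER4 (2.49 against 1.2 to 1.41), FLS1 (2.95 against 2.19 to 2.28). Exon 1 replicate 2 stood apart for PSBP-1 (9.45 against 9.75 to 9.78), NDA1 (6.48 against 7.04 to 7.08). Exon 1 replicate 4 stood apart for XTH31 (2.83 against 2.34 to 2.38).

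Contrasts between the lines, which hold no WT mean though the WT arrays share in the estimate of the spread, passed limma's threshold for AT3G06600 (-1.98), AT4G10695 (-2.27) between the exon 1 and the exon 2 line. Between the exon 1 line and amiNAA10 they did so for the genes named above, which are MIR841a (2.81), CIPK20 (2.18), HTA4 (1.98), FUM2 (1.88), EXPA8 (1.80), GER3 (-3.70), PDF1 (-3.69), LTL1 (-3.42), SPCH (-2.43), PEL3 (-2.33). PEL3 lost this call with only the arrays of both groups in the fit (adjusted p = 0.056).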

How the results depend on the processing

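The exon 1 line against WT gave 5448 calls and 5223 to 6011 with other arrays, variance priors, filters or the block, 3787 to 5156 with a single array left out, and 344 in a test against a 1.5-fold change. Against the exon 2 line the count was 2 or 3 throughout, and against amiNAA10 it was 1187 to 1853, or 638 to 1635 with an array left out. HYPK kept its direction and call in each fit run for its level, which leaves out the test against a 1.5-fold change. The lower level of NAA50 lost its call with only the arrays of both groups (-0.39, adjusted p = 0.103) and with an intensity trend (-0.39, adjusted p = 0.059), and ran from -0.26 to -0.50 with an array left out. With an array left out, the uncalled differences of AT3G06600 (-0.11 to 0.02), AT3G66652 (-0.17 to 0.08), ADH1 (-0.05 to 0.14), CAX4 (-0.11 to 0.01), CER4 (-0.28 to 0.14), RBOHD (-0.14 to 0.12), RCA (0.0 to 0.05), SAG12 (-0.02 to 0.12), TGA3 (-0.22 to 0.12) and TGA6 (-0.17 to 0.01) changed sign or reached 0, and AT3G06590 passed the test without WT replicate 4 (-0.37, adjusted p = 0.0347). The cause of these changes was not tested.

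The replicate numbers showed no pairing of the exon 1 and WT samples: same-numbered arrays correlated at -0.157 to 0.043 after removal of group means, and none correlated best with its own number. With the exon 2 line the range was -0.289 to 0.268 (1 of 4 best with its own number) and with amiNAA10 -0.096 to 0.302 (2 of 4). The labels do not say whether numbers pair samples, and 4 arrays per genotype are too few to decide it. With the replicate number as a block, RLP6 lost its call, and 5301, 2 and 1435 probe sets were called against WT, the exon 2 line and amiNAA10. The number of arrays and, for dim probe sets, the array's background limit what can be seen.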
